A study of Mus musculus with 8 samples.

Results

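Mitosis and DNA replication genes were examined in epididymal white adipose tissue of obese mice. The group was a list of 44 named genes, 31 that act in mitosis and 13 that act in DNA replication, and a gene counted as measured where the annotation gave at least 1 probe set with its symbol alone. On that basis 39 of the 44 were measured among 18820 genes on the arrays, 27 mitotic and 12 replication genes. Ccnb1, Kif20a, Nusap1, Ube2c and Tyms had no such probe set in the annotation used, and their levels were not analysed here. A gene with several probe sets was represented by the brightest on average.

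The 8 arrays came from male C57BL/6 mice. For 16 weeks every animal ate high-fat chow in which fat gave 45% of the energy, after 2 weeks on chow in which it gave 10%. The wild-type group held 4 arrays, and the other 4 arrays came from mice that overexpress human interleukin-37 (IL-37) from a transgene. IL-37, an IL-1 family cytokine, dampens innate immune responses. Neither the transgene's promoter nor the age of the mice is given in the sources used here. The numbered replicates were not stated to be separate mice, so each p reflects the spread among these arrays, which may be technical. Levels are log2 units, so that a difference of 1 is a 2-fold difference, and all differences are transgenic minus wild type.

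A cell that divides first copies its genome, with a helicase that opens the DNA, a clamp that holds the polymerase and enzymes that supply nucleotides. In mitosis, Cdk1 with its cyclins starts the process, kinases build the spindle, kinetochores attach the chromosomes, a checkpoint waits for every attachment, and cytokinesis cuts the cell apart. RNAs of both sets are made mostly in dividing cells and are therefore used as markers of proliferation. Mature fat cells rarely divide, while macrophages, progenitors and endothelial cells of obese fat can.

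The adipocyte markers were high on every array, with Adipoq, the adiponectin gene, between 12.12 and 12.51 and Plin1, the lipid droplet protein perilipin, between 12.22 and 12.45. Array medians lay between 5.97 and 6.04, and correlations between arrays across genes, which are not independent replicates, lay between 0.971 and 0.996. Transgenic replicate 4 stood apart for testis germ cell RNA. Its level of Prm1, a protamine of sperm, was 11.97 against 4.79 to 7.64 on the other 7 arrays, and that of Acrv1, a protein of the sperm acrosome, was 7.44 against 3.11 to 3.40. The mean of 7 germ cell markers was 8.10 on that array and 4.61 to 5.36 elsewhere, so the medians and calls of the members are also given without it. The letter (F, G or H) and the number (5, 7 or 9) in the array names were unevenly spread over the groups. Letter F held wild-type arrays only, letter H transgenic arrays only, and letter G wild-type replicates 3 and 4 with transgenic replicate 1. What they stand for was not given.

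Mitotic and replication RNAs were lower on average in transgenic fat, by up to 1.92-fold, but the arrays within each group were widely spread. The mitotic genes averaged 6.78 ± 0.44 on wild-type and 6.22 ± 0.26 on transgenic arrays, and the replication genes 7.50 ± 0.25 and 7.03 ± 0.20 (SD, n = 4). All 27 mitotic genes and 11 of the 12 replication genes had a lower transgenic mean, as had 44.7% of all genes. The median difference was -0.58 for the mitotic genes (range -0.93 to -0.10) and -0.39 for the replication genes (range -0.94 to 0.01), against 0.02 for all genes. Only Tpx2 passed the test of single genes (limma, Benjamini-Hochberg adjusted p at most 0.05 over all 18820 genes), 1 of 27 mitotic genes where 1.27% of all genes were called lower. No replication gene was called lower, and no member of either set was called higher, where 2.07% of all genes were. At an unadjusted limma p of 0.05 or less, 12 of 27 mitotic and 8 of 12 replication genes were lower, against 9.42% of all genes, and none was higher, against 11.2%. In bulk tissue, fewer dividing cells and less of these RNAs per cell cannot be told apart.

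**Figure D1:**
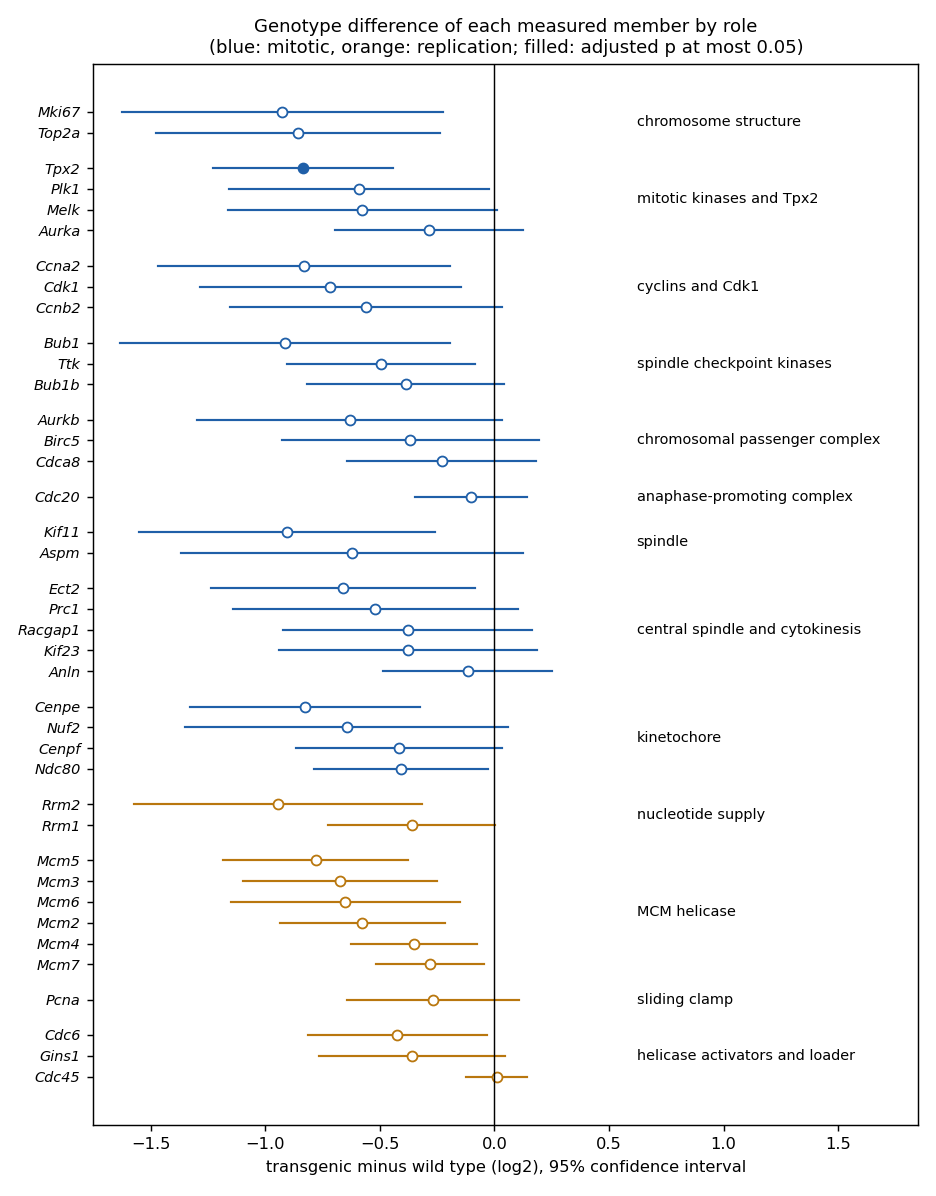
Difference in log2 level between transgenic and wild-type fat for each of the 39 measured genes, grouped by role, with the 95% confidence interval from limma; mitotic genes are blue and replication genes orange, and a filled point marks an adjusted p at most 0.05. Tpx2 is the only filled point, and Cdc45 (0.01) is the only gene not left of 0.

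Among the kinases that build the spindle and their partners, Tpx2 fell. Tpx2 is the microtubule protein that activates Aurora A kinase and starts spindle assembly around chromosomes. Its log2 levels were 7.06, 7.34, 6.56 and 6.94 on wild-type replicates 1 to 4 and 6.26, 6.37, 5.91 and 6.02 on transgenic replicates 1 to 4. Every transgenic value was below every wild-type value, the nearest being 6.37 and 6.56. The means were 6.98 ± 0.32 and 6.14 ± 0.21 (SD, n = 4), a 1.78-fold difference (log2 -0.83, SE 0.17, 95% interval -1.23 to -0.44, limma adjusted p = 0.0440). The call was near the threshold. It held without wild-type replicate 3 (limma adjusted p = 0.0144) and ended when any of the other 7 arrays was left out, at limma adjusted p from 0.0778 to 0.126. Aurka, which encodes Aurora A itself, differed by -0.29 (interval -0.70 to 0.12). Plk1, the polo kinase needed for spindle poles and mitotic exit, differed by -0.59 (interval -1.16 to -0.02), and Melk, a kinase of dividing and progenitor cells, by -0.58 (interval -1.16 to 0.01). Neither passed after adjustment (limma adjusted p = 0.224 and 0.250).

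Mki67 and Top2a, the usual histological and chromosomal markers of cycling cells, showed how the arrays lay. Mki67, whose product coats mitotic chromosomes, was at 8.78, 9.06, 7.85 and 8.33 in wild-type and 8.07, 7.88, 7.14 and 7.22 in transgenic fat. Wild-type replicate 3 lay below transgenic replicates 1 and 2, and the other 3 wild-type arrays lay above all transgenic ones. The difference was -0.93 (SE 0.30, limma adjusted p = 0.139). Top2a, the topoisomerase that untangles sister chromosomes, was at 7.92, 8.09, 6.99 and 7.55 in wild-type and 7.09, 7.14, 6.41 and 6.48 in transgenic fat. It had the same arrangement and differed by -0.86 (SE 0.27, limma adjusted p = 0.125).

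**Figure D2:**
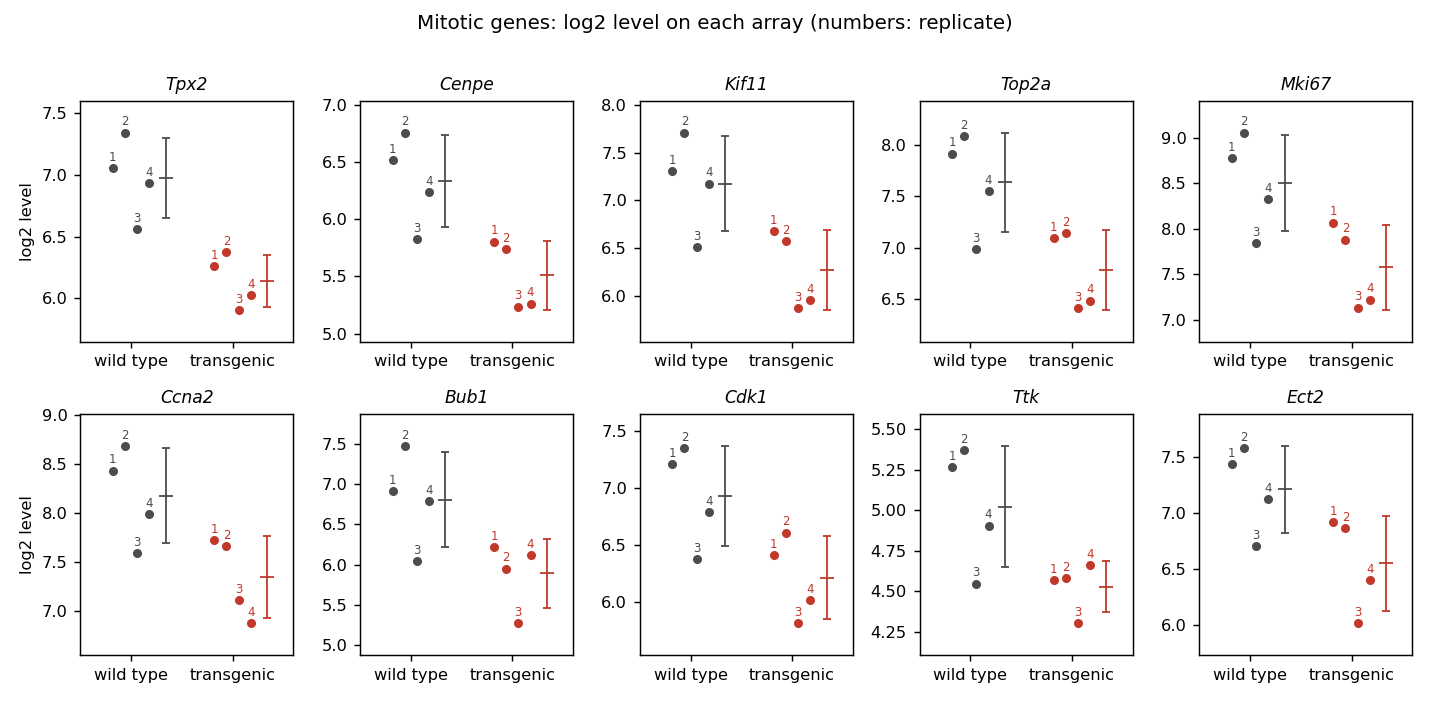
Log2 level (vertical axis, own scale per gene) of the 10 mitotic genes with the lowest p on each of the 4 wild-type (grey) and 4 transgenic (red) arrays; the digits are replicate numbers, and the bars beside the points are means ± SD. Wild-type replicate 3 is the lowest wild-type array in every panel, and the groups are separate for Tpx2 and Cenpe only.

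The cyclins and their kinase differed in the same direction without passing the test. Ccna2, cyclin A, which acts in both replication and the entry to mitosis, was at 8.43, 8.69, 7.59 and 7.99 in wild-type and 7.72, 7.66, 7.10 and 6.87 in transgenic fat. Cdk1, the kinase that drives mitosis, was at 7.21, 7.35, 6.37 and 6.78 against 6.41, 6.61, 5.81 and 6.02. In both genes wild-type replicate 3 lay inside the transgenic range. The differences were -0.83 for Ccna2 (SE 0.28) and -0.72 for Cdk1 (SE 0.25), with limma adjusted p of 0.141 and 0.153. Ccnb2, a B-type cyclin that partners Cdk1, differed by -0.56 (interval -1.15 to 0.04).

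Of the kinetochore genes, Cenpe was the other mitotic gene with separate groups. CENP-E is the motor that carries chromosomes to the middle of the spindle. Its levels were 6.52, 6.76, 5.83 and 6.24 in wild-type and 5.81, 5.74, 5.24 and 5.26 in transgenic fat, and the nearest arrays of the groups were at 5.83 and 5.81. The difference was -0.83 (SE 0.22, limma adjusted p = 0.0817). Tpx2 and Cenpe made 2 of 27 mitotic genes with every transgenic value below every wild-type value, a property of 5.73% of all genes. Ndc80 and Nuf2, which together grip the microtubule, differed by -0.41 (interval -0.79 to -0.03) and -0.64 (interval -1.35 to 0.06), and Cenpf, a large kinetochore and nuclear envelope protein, by -0.41.

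The spindle motor and checkpoint genes held several of the wider differences. Kif11, the motor that pushes spindle poles apart, was at 7.31, 7.71, 6.51 and 7.17 in wild-type and 6.68, 6.57, 5.87 and 5.95 in transgenic fat (difference -0.90, SE 0.28, limma adjusted p = 0.121). Bub1, a checkpoint kinase, was at 6.92, 7.47, 6.04 and 6.79 against 6.22, 5.95, 5.28 and 6.12 (difference -0.91, SE 0.31, limma adjusted p = 0.150). Ttk, the kinase known as Mps1 that starts the checkpoint signal, was at 5.27, 5.37, 4.55 and 4.90 against 4.57, 4.58, 4.30 and 4.66 (difference -0.49, SE 0.18, limma adjusted p = 0.168). In all 3 genes only wild-type replicate 3 overlapped the transgenic arrays. Bub1b, the checkpoint protein BubR1, differed by -0.39, and Aspm, a protein of the spindle poles, by -0.62 with a wide interval (-1.37 to 0.13).

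None of the genes of the last steps of mitosis was called. In the chromosomal passenger complex, which corrects faulty attachments and then moves to the cleavage site, the kinase Aurkb differed by -0.63 (interval -1.30 to 0.03), Birc5, the gene of survivin, by -0.37 and Cdca8, the gene of borealin, by -0.23. Among genes of the central spindle and cytokinesis, Ect2, which activates the small GTPase RhoA at the cleavage site, was at 7.44, 7.58, 6.70 and 7.13 in wild-type and 6.92, 6.87, 6.02 and 6.40 in transgenic fat. Its difference was -0.66 (SE 0.25, limma adjusted p = 0.185). Prc1, which bundles the central spindle, differed by -0.52, Racgap1 and Kif23, partners in the centralspindlin complex, by -0.38 each, and Anln, the actin-binding anillin, by -0.12 (interval -0.48 to 0.25). Cdc20, the activator of the anaphase-promoting complex that ends the checkpoint, differed by -0.10 (interval -0.35 to 0.14), the smallest difference of the 27.

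Among the replication genes, those of the helicase came nearest to the threshold. Mcm2 to Mcm7 encode the ring of 6 subunits that opens DNA at the fork, and all 6 had an unadjusted limma p of 0.05 or less, from -0.78 for Mcm5 to -0.28 for Mcm7. Mcm5 was at 7.68, 7.89, 7.17 and 7.51 in wild-type and 7.08, 6.90, 6.54 and 6.61 in transgenic fat, a 1.72-fold difference that missed the threshold narrowly (log2 -0.78, SE 0.18, limma adjusted p = 0.0545). Mcm2 was at 7.59, 7.74, 7.17 and 7.37 against 7.11, 7.09, 6.73 and 6.63 (log2 -0.58, SE 0.16, limma adjusted p = 0.0871). Mcm3 was at 7.09, 7.08, 6.52 and 6.65 against 6.51, 6.23, 6.14 and 5.78 (log2 -0.67, SE 0.18, limma adjusted p = 0.0882). These 3 were the replication genes with separate groups, 3 of 12 beside the 5.73% of all genes. Mcm6 was at 7.81, 8.04, 7.16 and 7.59 against 7.19, 7.31, 6.57 and 6.93 (log2 -0.65, SE 0.22, limma adjusted p = 0.143), with wild-type replicate 3 inside the transgenic range. Mcm4 differed by -0.35.

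**Figure D3:**
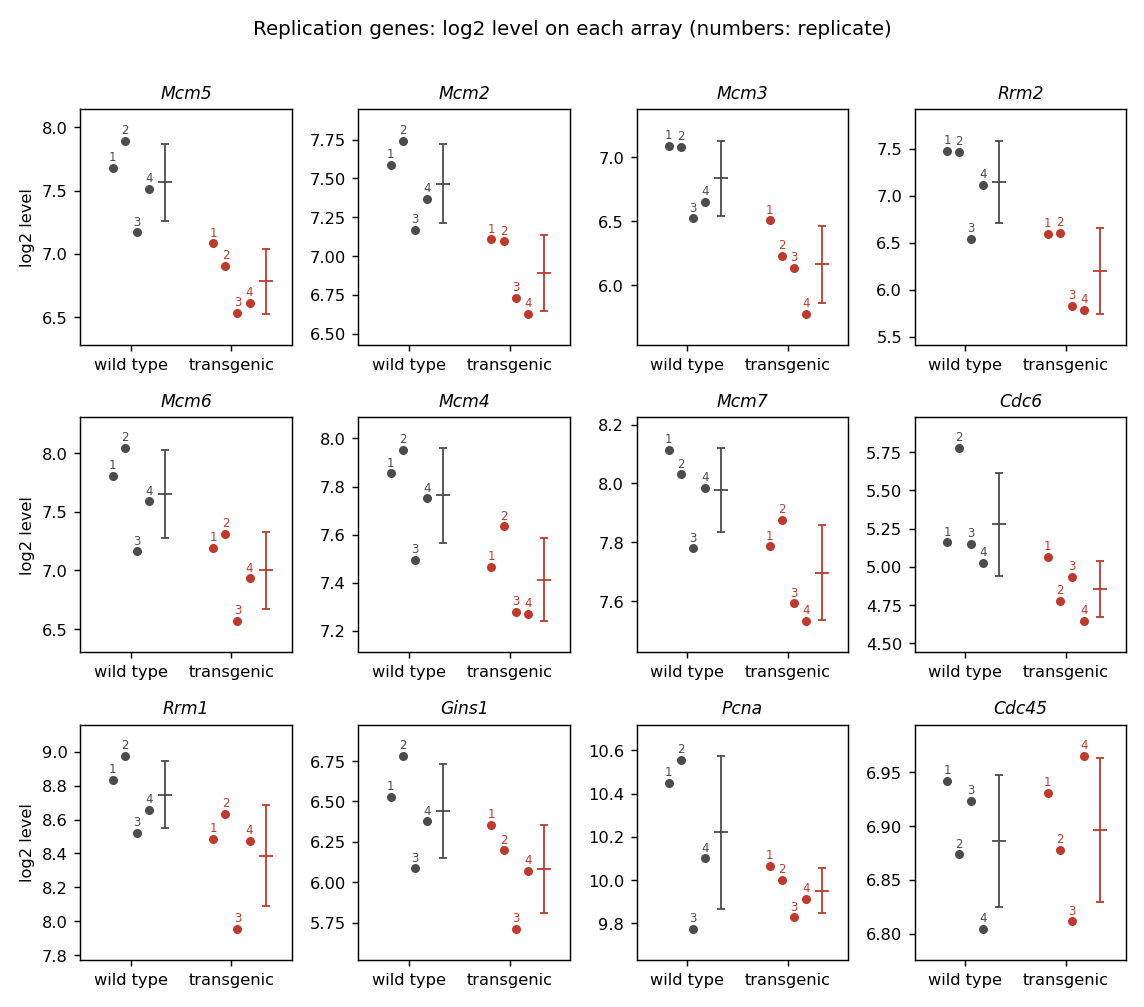
Log2 level (vertical axis, own scale per gene) of the 12 measured replication genes on each of the 4 wild-type (grey) and 4 transgenic (red) arrays, ordered by p; the digits are replicate numbers, and the bars beside the points are means ± SD. The groups are separate for Mcm5, Mcm2 and Mcm3, and they coincide for Cdc45.

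The other replication genes varied more. Rrm2, the inducible subunit of ribonucleotide reductase, which makes deoxynucleotides, had the widest difference of the 39 genes. It was at 7.47, 7.46, 6.54 and 7.11 in wild-type and 6.60, 6.60, 5.83 and 5.78 in transgenic fat (1.92-fold, log2 -0.94, SE 0.27, limma adjusted p = 0.101). Again wild-type replicate 3 overlapped transgenic replicates 1 and 2. Rrm1, the large subunit of the same enzyme, differed by -0.36 (interval -0.73 to 0.0044). Pcna, the sliding clamp, was at 10.45, 10.56, 9.78 and 10.10 against 10.07, 10.00, 9.83 and 9.91 (log2 -0.27, SE 0.16, limma adjusted p = 0.396). Its 2 probe sets gave nearly equal values, and since the gene table lists the pseudogenes Pcna-ps1 and Pcna-ps2, which copy it may read is uncertain. Cdc6, which loads the helicase, differed by -0.42 (interval -0.81 to -0.03), and Gins1, which activates it, by -0.36 (interval -0.77 to 0.04). Cdc45, the partner of Gins1 at the fork, lay between 6.80 and 6.97 on all 8 arrays and differed by 0.01 (interval -0.12 to 0.14).

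Promoters were read as a description of the genes, apart from the array values. The elements searched are known from cell cycle genes. Matches in genes listed for these roles therefore do not bear on the genotype difference. Windows of 250 bases before to 50 after the start were taken from RefSeq (GRCm38.p6) for 38 of the 44 genes and, 1 per gene, for 27025 genes in all. Tpx2, the called member, had no window, nor had Ccna2, Aurkb, Kif20a, Mcm4 and Gins1. Ccnb1, Nusap1, Ube2c and Tyms, which were not measured, had one, so the promoter sets differ from the measured sets. Letters of known cell cycle elements were searched on both strands. They were TTTGAA or TTCGAA (the cell cycle gene homology region, CHR, bound by DREAM and MuvB complexes), CCAAT (bound by NF-Y) and TTTNNCGC (a loose form of the E2F site). TTTGAA or TTCGAA occurred in 21 of 27 mitotic promoters (77.8%), in 3 of 11 replication promoters (27.3%) and in 19.4% of all promoters. CCAAT occurred in 77.8%, 81.8% and 37.9%, and both together in 70.4%, 27.3% and 7.7%. TTTNNCGC occurred in 2 of 27 mitotic promoters (7.41%), 6 of 11 replication promoters (54.5%) and 5.27% of all promoters. A match describes letters and does not show that a factor binds.

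The 200 bases before the start are shown for the 3 mitotic and 3 replication genes with the lowest p that had a window, with matches to these letters in capitals on either strand. In Mcm5 the 2 matches to TTTNNCGC overlap.
Cenpe (chr3:135212363-135212562, plus strand): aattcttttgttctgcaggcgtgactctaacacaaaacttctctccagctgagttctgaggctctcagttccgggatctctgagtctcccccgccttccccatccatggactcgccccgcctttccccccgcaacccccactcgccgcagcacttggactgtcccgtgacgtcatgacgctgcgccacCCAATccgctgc
Kif11 (chr19:37376182-37376381, plus strand): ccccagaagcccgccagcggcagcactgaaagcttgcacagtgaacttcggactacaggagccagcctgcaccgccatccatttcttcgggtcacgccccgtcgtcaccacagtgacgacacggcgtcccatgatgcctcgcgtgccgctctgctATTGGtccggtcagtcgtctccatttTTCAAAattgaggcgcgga
Top2a (chr11:99024190-99024389, minus strand): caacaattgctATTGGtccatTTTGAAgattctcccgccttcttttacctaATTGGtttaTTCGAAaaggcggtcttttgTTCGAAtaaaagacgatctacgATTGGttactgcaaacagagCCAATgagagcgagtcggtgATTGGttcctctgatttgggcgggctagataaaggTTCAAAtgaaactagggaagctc
Mcm5 (chr8:75109309-75109508, plus strand): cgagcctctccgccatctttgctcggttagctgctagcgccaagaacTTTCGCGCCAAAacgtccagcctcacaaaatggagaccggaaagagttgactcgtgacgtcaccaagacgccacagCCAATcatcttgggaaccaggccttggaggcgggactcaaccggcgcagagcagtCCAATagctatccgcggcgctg
Mcm2 (chr6:88898781-88898980, minus strand): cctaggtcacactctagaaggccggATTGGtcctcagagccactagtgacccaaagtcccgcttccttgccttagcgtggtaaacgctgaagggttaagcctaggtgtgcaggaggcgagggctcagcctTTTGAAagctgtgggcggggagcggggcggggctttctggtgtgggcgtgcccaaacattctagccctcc
Mcm3 (chr1:20820313-20820512, minus strand): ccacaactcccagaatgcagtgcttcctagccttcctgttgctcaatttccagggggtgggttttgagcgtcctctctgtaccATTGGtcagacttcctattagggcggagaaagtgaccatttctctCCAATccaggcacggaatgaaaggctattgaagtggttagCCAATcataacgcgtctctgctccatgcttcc
Top2a holds 4 CHR matches, 1 of them 23 to 18 bases before the start, and Kif11 has 1 at 19 to 14 bases before it, whereas the Cenpe stretch shows a CCAAT match only. Among the helicase genes, Mcm5 has the E2F letters in the printed stretch, Mcm3 has them after the start, and Mcm2 has none in its window.

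The genes moved together from array to array, also within each group. Wild-type replicate 2 had the highest wild-type level in 26 of 27 mitotic and 8 of 12 replication genes, against 30.6% of all genes. Wild-type replicate 3 had the lowest wild-type level in 27 of 27 and 10 of 12, against 37.8% of all genes. In the transgenic group replicate 3 was lowest for 22 of 27 mitotic and 6 of 12 replication genes, against 4905 of all 18820 genes. Replicate 4 was lowest for 4 mitotic and the other 6 replication genes, against 7010 of all 18820 genes. The mitotic share was thus above that of all genes for replicate 3 and below it for replicate 4. The mean of the mitotic genes was 7.003, 7.23, 6.22 and 6.69 on wild-type replicates 1 to 4 and 6.45, 6.43, 5.92 and 6.09 on transgenic replicates 1 to 4. That of the replication genes was 7.63, 7.76, 7.19 and 7.41 against 7.22, 7.18, 6.83 and 6.88. Wild-type replicate 3 lay below transgenic replicates 1 and 2 in mitotic RNA, and below transgenic replicate 1 in replication RNA.

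Several marker lists of other cells differed between arrays or groups. The mean of 12 general macrophage markers was 10.14, 10.19, 9.38 and 9.86 on the wild-type arrays, the same order as for the mitotic genes, and 9.42, 9.42, 9.43 and 9.07 on the transgenic arrays. The mean of 9 measured markers of lipid-associated macrophages, which surround dying fat cells, was 10.68, 10.73, 9.61 and 10.30 against 9.48, 9.56, 9.31 and 8.73. Of these lists, 2 of 12 and 2 of 9 genes were called lower by limma and none higher, beside 1.27% and 2.07% of all genes. The mean of 8 resident macrophage markers went the other way, at 9.36, 9.21, 9.09 and 9.34 against 9.72, 9.85, 9.63 and 9.501. The list was split. Of the 8, 3 (Cd163, Retnla and Cd209f) were called higher and none lower, beside 2.07% and 1.27% of all genes. Lyve1 (0.37) and Timd4 (0.55) had a higher transgenic mean without a call. Another 3, Mrc1 (-0.37), Folr2 (-0.08) and Cbr2 (-0.05), had a lower transgenic mean. Among the transgenic arrays the order differed, since mitotic RNA was lowest on replicate 3 and macrophage RNA on replicate 4. The mean of 6 endothelial markers lay between 10.07 and 10.30 in wild-type and 10.17 and 10.33 in transgenic fat, and that of 7 measured progenitor and fibroblast markers between 9.80 and 9.95 and between 9.74 and 10.06. The mean of 8 adipocyte markers was 12.12 to 12.22 in wild-type and 12.25 to 12.31 in transgenic fat, without overlap, and Adipoq rose (log2 0.30, limma adjusted p = 0.0309). That of 4 measured neutrophil markers was 5.48 to 5.63 in wild-type and 4.99 to 5.23 in transgenic fat, also without overlap. Of these 4, 3 had a lower transgenic mean, and 2 were called lower and none higher, beside 1.27% and 2.07% of all genes. The differences of the 4 were uneven, from -1.51 to 0.07 with a median of -0.27. B cell markers were highest on the array with the least mitotic RNA in each group, as were the adipocyte, endothelial and neutrophil means. On wild-type and transgenic replicate 3 the adipocyte mean was 12.22 and 12.31, the endothelial 10.30 and 10.33, and the neutrophil 5.63 and 5.23. The mean of 4 B cell markers was 7.49 on wild-type replicate 3 against 5.95 to 6.32 on the other wild-type arrays, and 7.28 on transgenic replicate 3 against 6.33 to 6.74 on the other transgenic arrays. The mean of 7 T cell markers was 6.51 on wild-type replicate 3 against 6.04 to 6.14 on the other wild-type arrays, and 6.09 to 6.28 on the transgenic arrays, with 6.12 on replicate 3. The part of any of these cells in the mitotic and replication RNA was not tested.

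**Figure D4:**
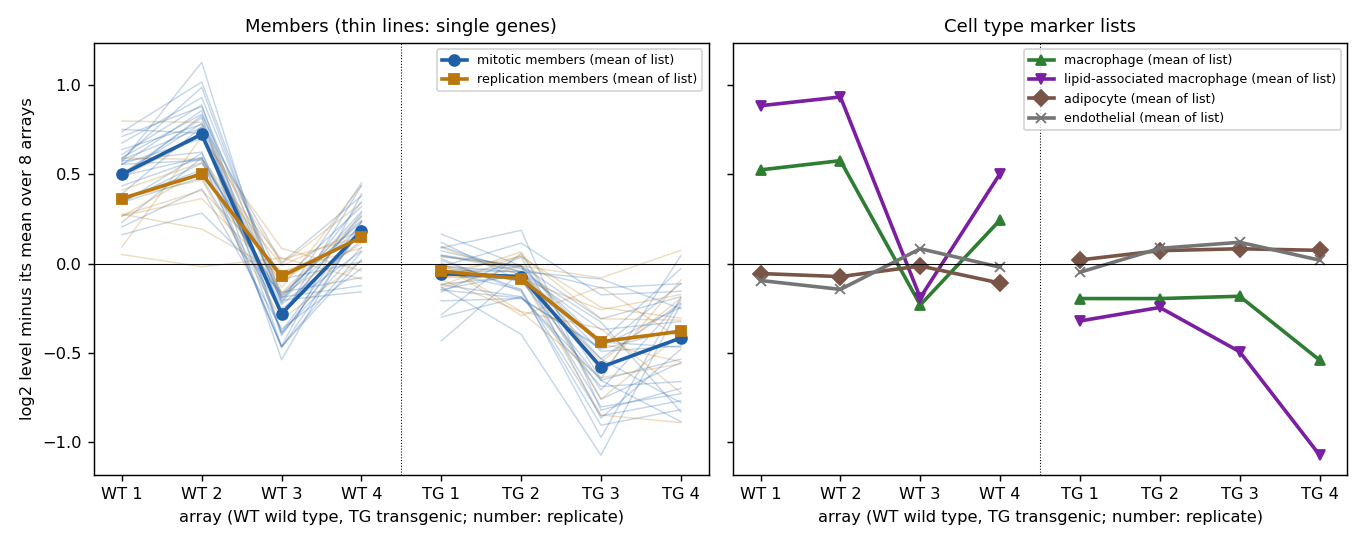
Log2 level minus its mean over the 8 arrays, by array; the left panel shows single mitotic (thin blue) and replication (thin orange) genes with their list means, and the right panel shows list means of macrophage, lipid-associated macrophage, adipocyte and endothelial markers. Mitotic, replication and macrophage levels are all lowest on replicate 3 among the wild-type arrays, while adipocyte and endothelial levels vary over a narrower range and the adipocyte mean is higher on every transgenic array.

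The genotype difference depended on which arrays were compared. Within number 5, which held wild-type replicate 3 and transgenic replicate 2, the median difference was 0.19 for the mitotic and 0.08 for the replication genes. Within number 7 it was -0.90 and -0.74, and within number 9 it was -0.99 and -0.73. Over all genes it was 0.065, 0.0081 and 0.0025 within numbers 5, 7 and 9. Within letter G, the only letter with both groups, it was 0.01 and -0.10, against 0.039 for all genes. There 12 of 27 mitotic and 9 of 12 replication genes were lower, as were 7895 of all 18820 genes. As letters F and H each held a single group, the letter block gives the same differences as letter G. They compare transgenic replicate 1 with wild-type replicates 3 and 4 only. With the letter as a block no member was called (0.319% of all genes were called lower), nor with the number as a block (0.149%).

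Without wild-type replicate 3, 9 of 27 mitotic genes were called lower (Bub1, Cenpe, Kif11, Ndc80, Plk1, Prc1, Top2a, Tpx2 and Ttk). So were 3 of 12 replication genes (Mcm2, Mcm5 and Rrm2), beside 3.55% of all genes. That array had the lowest wild-type level for nearly all of them, and leaving it out could only widen the differences of those genes. Without transgenic replicate 4, the array with germ cell RNA, the medians were -0.50 and -0.37 and no member was called. Leaving out any single array, the medians ran from -0.79 to -0.42 for the mitotic and from -0.47 to -0.29 for the replication genes.

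**Figure D5:**
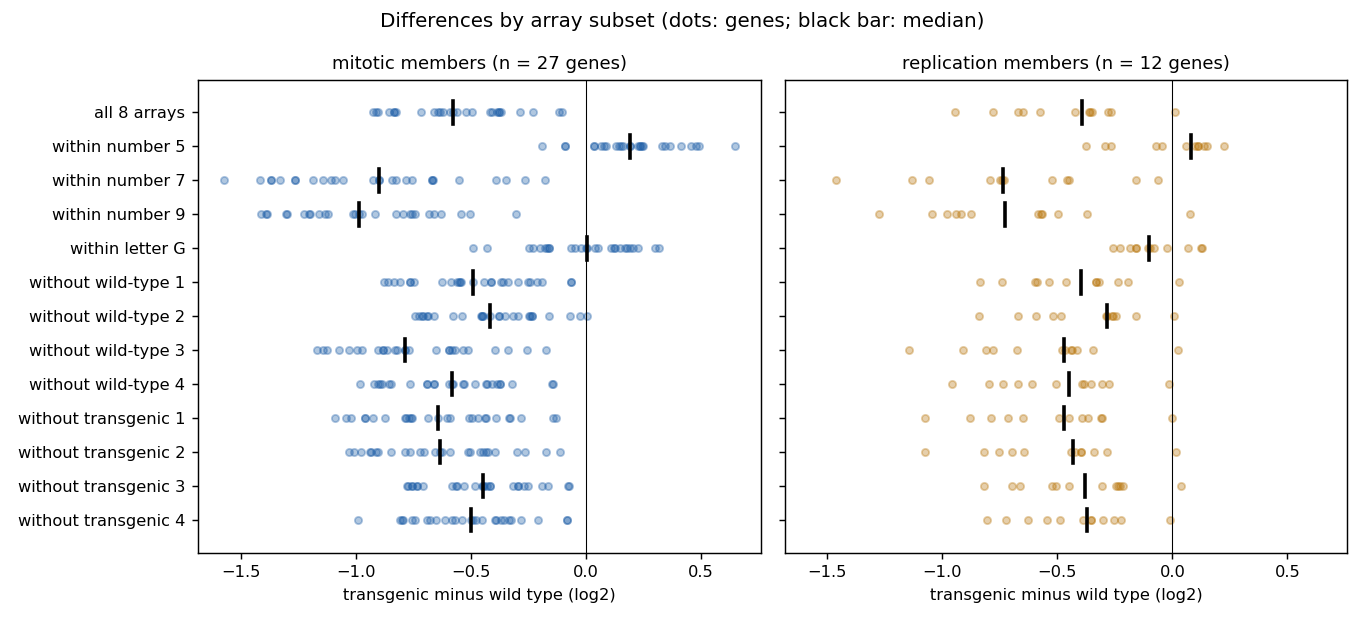
Difference in log2 level (transgenic minus wild type) of each measured gene (dots) and the median (black bar) over all 8 arrays, within each number or letter of the array names, and with each array left out; mitotic genes are on the left and replication genes on the right. The medians are below 0 in every row but number 5 and, for mitotic genes, letter G.

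Further genes of the same processes were counted from separate lists. Of 61 other measured mitosis genes, 60 had a lower transgenic mean (median difference -0.43), 30 had an unadjusted limma p of 0.05 or less with a lower level, and 2 were called lower. The shares over all genes were 44.7%, 9.42% and 1.27%. Counts and medians of this and the following lists were not repeated without transgenic replicate 4, the array with germ cell RNA. Spc25, a subunit of the Ndc80 complex at the kinetochore, was at 7.34, 7.22, 6.76 and 6.99 in wild-type and 6.12, 6.09, 6.18 and 6.16 in transgenic fat. The lowest wild-type value, of replicate 3, lay above the highest transgenic one, and the difference was 1.92-fold (log2 -0.94, SE 0.12, limma adjusted p = 0.0102). Stil, needed to duplicate centrioles, fell by 0.74 on the log2 scale (SE 0.16, limma adjusted p = 0.0462). Its call held without wild-type replicate 3 and ended when any of the other 7 arrays was left out, at limma adjusted p from 0.0667 to 0.130. The call of Stil also ended with the letter or number block. It ended too after a second quantile normalization, after centring arrays on medians and with all probe sets tested (limma adjusted p = 0.0662, 0.0593 and 0.0693). Spc25 was called whichever single array was left out, but its call ended with the letter as a block (log2 -0.76, limma adjusted p = 0.0888).

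Of 47 other measured replication genes, 35 had a lower mean (median difference -0.24), 22 had an unadjusted limma p of 0.05 or less with a lower level, and none was called lower, beside the same shares of all genes. Called higher was 1 of the 47 (2.13%), near the 2.07% of all genes. Mcm8, a helicase related to the Mcm2 to Mcm7 ring that acts mainly in recombination repair, rose slightly from 6.46 ± 0.04 to 6.71 ± 0.05 (SD, n = 4; log2 0.25, limma adjusted p = 0.0440). That call ended without each of the 8 arrays in turn, at limma adjusted p from 0.0544 to 0.131.

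Cdk6 and Ccnd1, which act before replication, were lower on every transgenic array. Of 28 measured cyclins, kinases, inhibitors and RB and E2F genes of the G1 phase, 2 were called lower and none higher, beside 1.27% and 2.07% of all genes (median difference -0.08). Cdk6, a kinase that partners D-type cyclins to release cells into replication, was at 9.37, 9.39, 9.16 and 9.37 in wild-type and 8.54, 8.33, 8.65 and 8.39 in transgenic fat (1.79-fold, log2 -0.84, SE 0.09, limma adjusted p = 0.00548). Ccnd1, cyclin D1, was at 9.60, 9.48, 9.54 and 9.44 against 9.05, 8.999, 8.94 and 8.86 (1.47-fold, log2 -0.55, SE 0.06, limma adjusted p = 0.00647). In both genes the groups were well apart on all arrays, and both calls held whichever single array was left out. Within numbers 5, 7 and 9 Cdk6 differed by -0.83, -0.71 and -0.93 and Ccnd1 by -0.54, -0.58 and -0.53. Within letter G they differed by -0.72 and -0.44, where the letter block ended both calls (limma adjusted p = 0.181 and 0.232). The number block also ended the call of Ccnd1 (limma adjusted p = 0.0541). With transgenic replicates 2 and 3, whose array names carry a final 2, left out, the calls ended but the differences stayed at -0.94 for Spc25, -0.86 for Cdk6 and -0.56 for Ccnd1 (limma adjusted p = 0.109, 0.0683 and 0.0906).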

How the data were processed

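Gene expression was measured on 8 single-colour arrays, 4 per group. The deposited values were log2 levels of 35556 probe sets, made by the authors with RMA per the submitters' processing notes. Its settings and version were not given there. RMA equalises array distributions, which hides any shift common to most genes and shrinks differences near background. The number of arrays limits the precision.

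Of the probe sets, 21218 had 1 gene symbol, 1881 several and 12457 none in the annotation used, and 21185 were renamed through Entrez identifiers. This left 18820 genes. All 39 measured members had a mean not below 4.49, the 25th percentile over genes. Only 17 of them, 9 mitotic and 8 replication genes, were at or above the median gene (6.74).

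Transgenic and wild-type arrays were compared by limma 3.58.1 (R 4.3.3; lmFit, eBayes, two-sided, no filter, Benjamini-Hochberg over all genes, threshold 0.05). Lists were described by counts and medians. Alternatives were other normalizations, filters, probe set rules, priors, array weights, blocks and left-out arrays. The members and lists were chosen with earlier results of these data known. All 44 members were named, with array values for those past the threshold, the 10 mitotic and 5 replication genes with the lowest p, Mki67, Top2a, Cdk1, Mcm2 and Pcna. Ccnb1 was also due for array values but was not measured. Of other pathway lists, the genes past the threshold were named. On simulated data the fit recovered 48% of 50 genes changed by 0.5 and 82% of 50 changed by 1 (log2), among 18820 genes. In that run 200 genes were changed in all, and 13 unchanged genes were called. Recovery among the members, which moved together from array to array, was not tested. Plots used matplotlib 3.10.9 (Python 3.11.15).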

Additional observations from a re-analysis of the deposited data

Results flagged for a closer look

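Among 148 groups of 4 arrays tested for a single distant array, 9 had one (6.08%), a rate that chance alone puts near 1 in 20. None was a mitotic or replication member. The test set the gap to the next array against the range of the 4 arrays, so a gap small in log2 units could pass. Transgenic replicate 4 was the distant array for the germ cell genes Tnp2 (9.45) and Acrv1 (7.44), and for Adgre1, the macrophage marker F4/80 (9.31). It was also distant for the means of the macrophage (9.07) and dendritic cell (6.27) markers, and for Stil (5.58 against 5.45 on each other transgenic array). Wild-type replicate 3 lay apart for Cdk6 (9.16). Transgenic replicate 1 lay apart for the mean of the adipocyte markers (12.25 against 12.30 to 12.31), and transgenic replicate 3 for that of the mesothelial markers (7.86).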

How the results depend on the processing

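Over all genes 239 were called lower and 390 higher. These counts became 554 and 741 among genes at or above the median gene, 132 and 217 with all probe sets tested, 539 and 724 with array weights, 60 and 10 with the letter block, 28 and 44 with the number block, 5 and 13 without the arrays whose names end in 2, 680 and 857 at a threshold of 0.1, and 32 to 668 and 50 to 520 when 1 array was left out. Without wild-type replicate 3 and transgenic replicate 2, an alternative chosen after seeing the data, 211 were higher. Mitotic genes called lower (1) became 0 after a second quantile normalization, with all probe sets, with the letter block (0), the number block (0) and without the arrays whose names end in 2. They were also 0 among genes at or above the median gene, where Tpx2 was not tested. They became 2 with array weights, 2 at a threshold of 0.1, 2 without wild-type replicate 3 and transgenic replicate 2, and 0 to 9 when 1 array was left out. Replication genes called lower (0) became 1 among genes averaging 4.49 or more, 2 at or above the median gene, 1 with a trended robust prior, 1 with array weights, 2 without wild-type replicate 3 and transgenic replicate 2, 3 at a threshold of 0.1, and 0 to 3 when 1 array was left out. The median difference of the mitotic genes was 0.0073 with the letter block and within letter G, 0.19 within number 5 and -0.99 within number 9. That of the replication genes was -0.10 with the letter block and within letter G, 0.079 within number 5, -0.74 within number 7 and -0.73 within number 9. Both letter settings are the same comparison, of transgenic replicate 1 with wild-type replicates 3 and 4. With the letter block the sign turned for Bub1b (0.041), Aurka (0.15), Aurkb (0.17), Birc5 (0.32), Plk1 (0.0003), Cdc20 (0.19), Kif23 (0.30), Prc1 (0.11), Cdca8 (0.23), Nuf2 (0.12), Melk (0.051), Ect2 (0.0073), Aspm (0.12), Anln (0.18), Racgap1 (0.21), Pcna (0.13) and Gins1 (0.12). Anln turned without wild-type replicate 2 (0.0045) and was -0.31 without wild-type replicate 3 and transgenic replicate 2. Cdc45 turned with the number block (-0.0079) and ran from -0.0167 to 0.039 when 1 array was left out, below 0 for wild-type replicate 4 (-0.0167) and for transgenic replicates 1 (-0.0011) and 4 (-0.0125). The cause was not tested.

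Replicate numbers are shared by the groups but did not pair the arrays: deviations of same-numbered arrays correlated at 0.06 to 0.10 across genes, other pairs at -0.30 to 0.37, and 2 of 8 arrays were closest to their own number. With the replicate block 53 genes were lower and 40 higher, with 4 mitotic (Cdk1, Ect2, Top2a and Tpx2) and 1 replication gene (Mcm6) called lower.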
